A study of Mus musculus with 15 samples.

Results

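The genes described here encode voltage-gated sodium, calcium and potassium channels, the other potassium channels, the HCN pacemaker channels and their accessory subunits. They were taken by symbol: every row beginning with Kcn, Scn and a number, Cacn, or Hcn and a number, leaving out Kcnq1ot1 and Kcnk9. The rule gave 141 of the 31017 gene symbols in each count table, and no measured value entered it. By class they were 40 Kv alpha subunits, 17 potassium channel accessory genes, 15 inward rectifiers, 13 two-pore-domain potassium channels and 8 calcium- or sodium-activated potassium channels. The others were 10 sodium channel (Nav) alpha and 4 beta genes, 10 calcium channel (Cav) alpha1, 4 alpha2delta, 4 beta and 8 gamma genes, 4 HCN genes and 4 antisense genes.

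These channels are pores in the cell membrane that let ions pass down their gradients. In neurons, Nav channels open first and start the action potential, and Kv channels open later and end it. Cav channels admit the calcium that triggers transmitter release, and HCN channels carry an inward current at negative potentials that tunes rhythmic firing. Inward rectifiers and two-pore-domain channels set the resting potential, and in astrocytes they also clear potassium released by active neurons. Accessory subunits carry the pores to the membrane and change how fast they open and close. Most of these genes are known from brain, heart and muscle, while a few, such as Kcnn4, are known from blood cells and fibroblasts.

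The series measured RNA immunoprecipitated (RIP) from mice that carry a dominant Dnmt1 mutation as homozygotes (Hom), heterozygotes (Het) and from wild type (WT) mice. Dnmt1 is the enzyme that keeps up DNA methylation after replication. For the m5C RIP, an antibody that binds 5-methylcytosine, a modified base of RNA, was applied to 1 µg of mRNA from cortex (1 Hom, 1 Het and 1 WT library) and from fibroblasts (1 Hom, 1 Het and 2 WT libraries). For the Dnmt1 RIP, an antibody to the protein was applied to fibroblasts fixed in 1% formaldehyde (2 Hom, 2 Het and 2 WT libraries). A single input per tissue carries an antibody label of IgG. Together these are 15 libraries in 11 groups. All fibroblasts came from lines grown from tails of littermates of the same sex, per the labels' protocols. The protocols name both rRNA depletion and polyA enrichment, and the sources used here do not tell which library had which. Whether libraries of 1 group stem from separate cultures is not stated, and p-values then measure only how these libraries vary, which may be technical. With no input per genotype, RNA captured cannot be told apart from RNA abundance, and fewer cells of a type cannot be told apart from less RNA per cell.

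Depth and cell type markers differed between the libraries. Gene counts ranged from 217173 to 4913482 per library, and 4 transcripts (Lars2, Gm42418, Gm26917 and Gm10800) took 4.01 to 63.5% of them. Levels are therefore given as CPM, gene counts per 1000000 gene counts of the library without those 4, and levels of different genes are compared only as CPM per kb of exon. A count of 0 allows up to 3 counts, which is 0.656 to 31.5 CPM depending on the library. Floors and intervals cover counting error only. The summed level of 13 neuron markers was 4756 and 3556 CPM in Hom, 3413 and 3252 CPM in Het, and 5254 and 3695 CPM in WT Dnmt1 RIP libraries, although these are labelled fibroblast. It was 535 to 1121 CPM in fibroblast m5C RIP, 8393 to 8632 CPM in cortex m5C RIP and 7922 CPM in cortex input, and no neuron marker was at 0 in any RIP library. The 12 fibroblast markers summed to 1326 and 2821 CPM in Hom, 22639 and 8417 CPM in Het, and 709 and 2289 CPM in WT Dnmt1 RIP libraries, against 25873 to 32390 CPM in fibroblast m5C RIP and 629 to 714 CPM in cortex m5C RIP. Dnmt1 itself ranged from 1166 to 1736 CPM in cortex m5C RIP, from 2048 to 10154 CPM in the Dnmt1 RIP and from 413 to 10690.2 CPM in fibroblast m5C RIP. In fibroblast m5C RIP, the counts of WT library 1 were no lower than in the Hom library for any of the 31017 genes, and equal in 7163 of the 19511 genes detected there. For the channel genes this held in 141 of 141, with 37 of 124 detected ones equal, so these libraries are not independent, and the tissue and antibody comparisons are also given without both.

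Channel genes were read at a similar total in every cortex library, at about the level of cortex input. Their summed level was 13376 CPM in Hom, 13381 CPM in Het and 13984 CPM in WT cortex m5C RIP, and 13724 CPM in cortex input. In the Dnmt1 RIP it was 9838 and 9132 CPM in Hom, 6934 and 6565 CPM in Het, and 10156 and 8468 CPM in WT. In fibroblast m5C RIP it was 2673 CPM in Hom, 1939 CPM in Het, and 3016 and 2296 CPM in WT. The 6 Dnmt1 RIP values all lay between those of the cortex libraries and those of fibroblast m5C RIP, and both Het values lay below the other 4. Fibroblast input summed to 3911 CPM from 372 counts. The neuron markers lay in the same order, at 41.0 to 66.3% of their cortex input level in the Dnmt1 RIP and 6.76 to 14.2% in fibroblast m5C RIP; the channel genes were at 47.8 to 74.0% and 14.1 to 21.97%. The part of these marker levels in the channel levels was not tested.

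**Figure D1:**
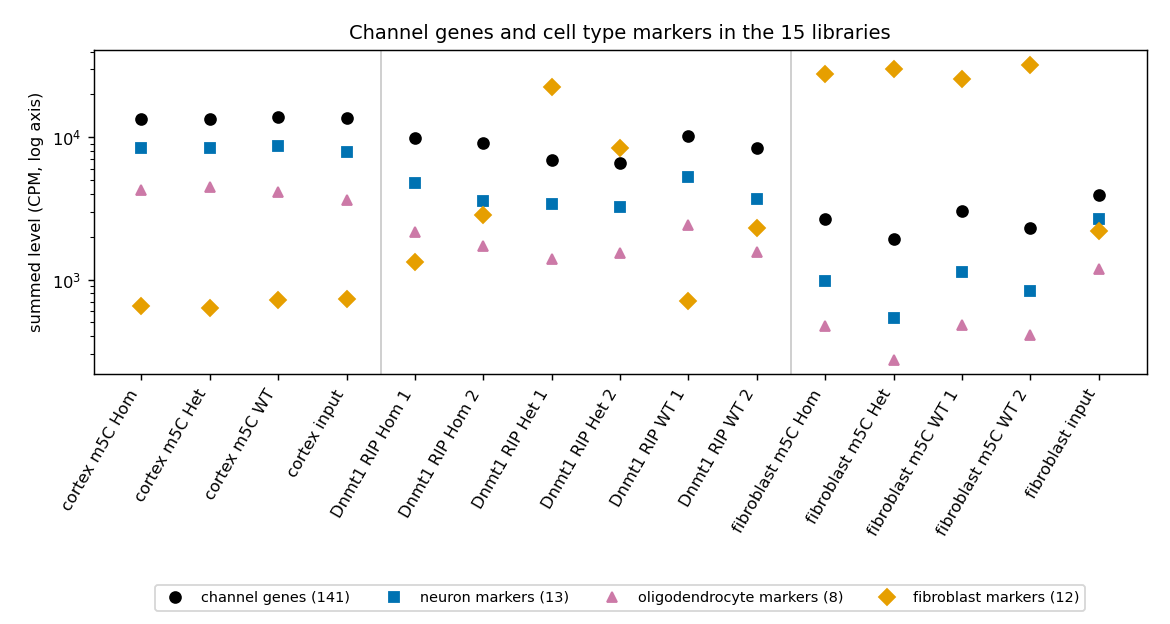
Summed level (CPM, log axis) of the 141 channel genes, 13 neuron, 8 oligodendrocyte and 12 fibroblast markers in each of the 15 libraries, 1 point per library. The channel genes lie above the neuron markers in every library, at 13376 to 13984 CPM in cortex, 6565 to 10156 CPM in the Dnmt1 RIP and 1939 to 3911 CPM in the other fibroblast libraries.

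The share of each class in the summed level was close between tissues for the pore-forming Cav alpha1 genes, at 17.2 to 18.2% in cortex m5C RIP, 16.8 to 18.7% in the Dnmt1 RIP and 18.1 to 19.2% in fibroblast m5C RIP. Kv alpha subunits made 29.2 to 29.6% in cortex m5C RIP, 25.4 to 28.5% in the Dnmt1 RIP and 19.96 to 24.5% in fibroblast m5C RIP, and these ranges did not overlap. Two-pore-domain channels made 1.48 to 2.04% in cortex m5C RIP, 2.19 to 3.40% in the Dnmt1 RIP and 2.58 to 4.01% in fibroblast m5C RIP. Cav gamma genes, which encode relatives of calcium channel subunits that mostly serve AMPA receptors, made 4.08 to 4.73% in cortex m5C RIP, 4.08 to 5.20% in the Dnmt1 RIP and 6.53 to 7.97% in fibroblast m5C RIP.

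Per kb of exon, accessory subunits and pores both had members at high levels in cortex m5C RIP. Cacng7, an AMPA receptor accessory gene, averaged 96.4 ± 8.06 CPM per kb in cortex m5C RIP (SD, n = 3), 48.8 ± 5.75 in the Dnmt1 RIP (n = 6) and 53.1 ± 4.68 in fibroblast m5C RIP (n = 4). Scn2b, Kcnab2 (a cytoplasmic Kv beta subunit) and Hcn2 averaged 68.9 ± 2.39, 64.5 ± 8.07 and 62.6 ± 14.99 CPM per kb in cortex m5C RIP, spans that overlap among the 3 genes. Of the pores, Scn8a, the sodium channel of axon initial segments and nodes, averaged 41.5 ± 2.53 CPM per kb in cortex m5C RIP. Kcna1 and Kcnc1, an axonal and a fast-spiking Kv channel, lay within that spread at 41.6 ± 3.85 and 40.1 ± 6.30 CPM per kb. Among the inward rectifiers Kcnj10, the astrocyte channel, led with 50.1 ± 5.18 CPM per kb, ahead of Kcnj4 at 34.6 ± 7.82. Cacna1a, the main presynaptic calcium channel, had the highest mean of its class at 36.5 ± 7.46 CPM per kb, a spread that held Cacna1b (29.4 ± 3.20) and Cacna1e (29.5 ± 1.30). Kcnma1, the large-conductance calcium-activated channel, led its class with 33.1 ± 1.94. In fibroblast m5C RIP the leaders of some classes were other genes. Kcnn4 led the calcium-activated channels with 17.1 ± 1.01 CPM per kb. Cacna1g, a T-type calcium channel, had the highest mean of Cav alpha1 at 10.4 ± 2.20, with an SD that overlapped that of Cacna1a (8.11 ± 2.05), and Kcnk13, a two-pore-domain channel known from microglia, had the highest mean of its class at 6.72 ± 4.34, within the spread of the next gene. In the Dnmt1 RIP the two-pore-domain channel Kcnk12 averaged 23.8 ± 9.19 CPM per kb, against 4.51 ± 3.44 in fibroblast m5C RIP.

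The comparison of cortex with fibroblasts in the m5C RIP asks which channel RNAs differ between the tissues in the precipitated mRNA. Of 141 channel genes, 109 passed the filter on low counts and 32 did not. By edgeR's quasi-likelihood test with Benjamini-Hochberg adjustment over all genes, 89 were higher and 6 lower in cortex, and 14 did not pass. As background, 63.9% of 14193 genes passed, 30.9% higher and 33.0% lower. The median log2 fold change of the channel genes tested was 2.41, against -0.06 over all genes tested. Groups did not overlap in 94 channel genes, where the background was 67.0%. The 13 alternatives gave 88 to 98 calls, and leaving out both overlapping fibroblast libraries gave 88 higher and 3 lower.

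Sodium channel beta subunits were higher in cortex throughout, and the alpha subunits went both ways. All 4 Nav beta genes were called higher, among them Scn2b (log2 fold change 3.5 ± 0.21, SE, adjusted p = 5.14e-09 by edgeR) and Scn4b (3.49 ± 0.24). Of 9 Nav alpha genes tested, 5 were higher, 3 lower and 1 not called. Scn8a, at chr15:100869858-101045938 on mm10, had 691 CPM in Hom, 612 CPM in Het and 658 CPM in WT cortex, against 71.5 CPM in Hom, 48.6 CPM in Het, and 76.0 and 47.2 CPM in WT fibroblasts. The tissues did not overlap, and the log2 fold change was 3.35 ± 0.20 (edgeR adjusted p = 4.33e-09). Scn2a and Scn1a, the other main brain sodium channels, were higher by 3.13 ± 0.19 and 2.81 ± 0.23. The lower 3 were Scn7a, a sodium sensor of glia and other non-neuronal cells, and Scn10a and Scn11a, channels of sensory neurons. Scn7a had 5.22, 3.64 and 6.502 CPM in Hom, Het and WT cortex, against 16.0 CPM in Hom, 30.8 CPM in Het, and 13.7 and 26.6 CPM in WT fibroblasts (log2 fold change -2.19 ± 0.46, edgeR adjusted p = 7.03e-04, called under all 13 alternatives). Scn11a rested on 2 counts in cortex and 33 in fibroblasts, a ratio of fibroblast to cortex of 17.1 (counting interval 4.38 to 147). Its call was lost without the fibroblast Hom library (edgeR adjusted p = 0.0996) and without the cortex Hom library (0.0691). Scn10a (-3.29 ± 1.09, edgeR adjusted p = 0.0167) was called under 8 of 13 alternatives.

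Calcium channel genes were higher in nearly every member tested: 8 of 9 alpha1, 3 of 4 alpha2delta, 4 of 4 beta and 6 of 6 gamma genes. Cacna2d3, an alpha2delta subunit, was higher by 3.48 ± 0.25 on the log2 scale, the R-type pore Cacna1e by 3.36 ± 0.21 and the beta subunit Cacnb4 by 3.29 ± 0.21. Cacna1g and Cacng7 had smaller differences. Cacna1g had 191 CPM in Hom, 186 CPM in Het and 200 CPM in WT cortex, against 101 CPM in Hom, 79.9 CPM in Het, and 106 and 134 CPM in WT fibroblasts (0.82 ± 0.19, edgeR adjusted p = 1.43e-03). Cacng7 had 216 CPM in Hom, 256 CPM in Het and 234 CPM in WT cortex, against 144 CPM in Hom, 117 CPM in Het, and 128 and 130 CPM in WT fibroblasts (0.75 ± 0.17, edgeR adjusted p = 1.59e-03).

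Of 34 Kv alpha subunits tested, 29 were higher and none lower. Kcnc2, a channel of fast-spiking neurons at chr10:112271121-112467024 on mm10, had 116 CPM in Hom, 92.5 CPM in Het and 118 CPM in WT cortex, against 4.38 CPM in Hom, 10.6 CPM in Het, and 9.97 and 9.45 CPM in WT fibroblasts, with no overlap (3.45 ± 0.27, edgeR adjusted p = 5.01e-08). Kcnh5, an ether-a-go-go channel (3.52 ± 0.40), the silent subunit Kcnv1 (3.45 ± 0.38) and the A-type channel Kcnd2 (3.42 ± 0.26) were also called higher. All 7 accessory potassium channel genes and all 4 HCN genes tested were higher, among them Kcnip2, a calcium-sensing partner of A-type channels (3.23 ± 0.23), and Hcn2 (2.20 ± 0.20). Of the inward rectifiers 9 of 12 were higher and 1 lower, led by Kcnj12, known from heart (3.78 ± 0.63), and Kcnj10 (3.39 ± 0.23). The two-pore-domain class had 5 of 8 higher, among them Kcnk1 (3.07 ± 0.30), and Kcnk6 lower (-1.42 ± 0.55, edgeR adjusted p = 0.0352, called under 4 of 13 alternatives).

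Kcnn4, the intermediate-conductance calcium-activated potassium channel, had the lowest value. The gene lies at chr7:24370263-24386690 on mm10. It was read at 0.869 CPM in Hom and 0 in Het and WT cortex, against 94.8 CPM in Hom, 87.1 CPM in Het, and 83.5 and 84.2 CPM in WT fibroblasts. The 4 fibroblast libraries were close to each other and the cortex held 2 counts against 411, a ratio of fibroblast to cortex of 213 (counting interval 58.6 to 1765; log2 fold change -7.63 ± 0.45, edgeR adjusted p = 4.80e-09). The other 5 calcium- and sodium-activated genes called were higher, among them Kcnma1 (3.29 ± 0.21). Kcnj15, an inward rectifier known from kidney, lies at chr16:95257558-95300260, where Gm49643 covers 5.28% of its exons. It had 2 counts in cortex, both in WT, against 10.2 CPM in Hom, 36.1 CPM in Het, and 9.97 and 35.2 CPM in WT fibroblasts. The ratio of fibroblast to cortex was 67.9 (counting interval 18.4 to 567; log2 fold change -5.45 ± 0.82, edgeR adjusted p = 3.97e-05). Its low fibroblast values were those of the Hom library and WT library 1, whose counts overlap. Macrophage markers, a list of 10, summed to 7243 to 13403 CPM in fibroblast m5C RIP and 156 to 178 CPM in cortex; their part in the levels of Kcnn4 and Kcnj15 was not tested.

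**Figure D2:**
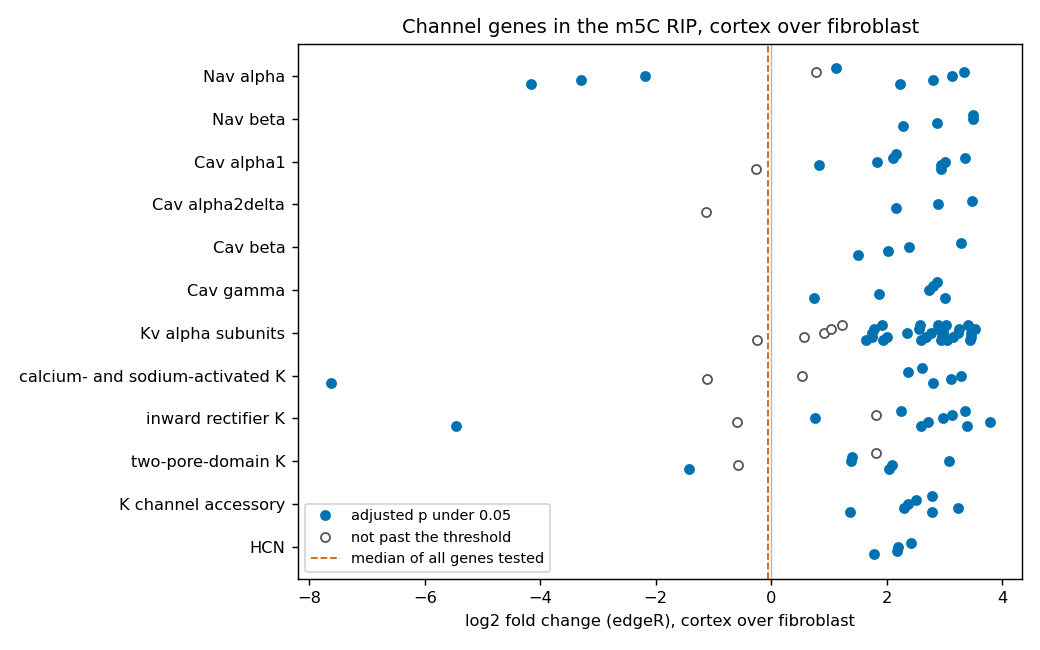
Log2 fold change of cortex over fibroblast m5C RIP for the 109 channel genes tested, 1 point per gene, by class. Filled points passed adjusted p 0.05 in edgeR, 89 of them above 0 and 6 below, and the dashed line is the median of all genes tested, -0.06.

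Promoters of one gene from each side of this comparison are shown because both kinds move with tissue. The window runs from 250 bases before to 50 after the start, read on the gene's strand from RefSeq on GRCm38.p6, with each CG in capitals. The Scn8a window is chr15:100870395-100870694 on the plus strand, at the first of 2 listed starts, and the Kcnn4 window is chr7:24370013-24370312 on the plus strand.
Scn8a: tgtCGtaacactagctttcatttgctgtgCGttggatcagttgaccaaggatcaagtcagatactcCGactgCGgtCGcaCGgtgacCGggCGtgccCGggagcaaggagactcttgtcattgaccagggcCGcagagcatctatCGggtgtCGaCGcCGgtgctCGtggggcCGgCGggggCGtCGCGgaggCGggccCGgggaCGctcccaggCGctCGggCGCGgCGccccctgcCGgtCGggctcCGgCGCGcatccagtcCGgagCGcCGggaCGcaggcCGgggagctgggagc
Kcnn4: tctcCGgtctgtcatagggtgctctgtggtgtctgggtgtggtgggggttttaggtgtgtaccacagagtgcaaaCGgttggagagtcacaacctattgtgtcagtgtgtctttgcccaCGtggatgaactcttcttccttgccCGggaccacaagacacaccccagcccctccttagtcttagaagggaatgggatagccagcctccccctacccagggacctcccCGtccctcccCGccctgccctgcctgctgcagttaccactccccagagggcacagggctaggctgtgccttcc
The motif searched was CG, which reads the same on both strands. The Scn8a window holds 38, a number reached or passed by 4.78% of the genes in the table, and the Kcnn4 window 6, reached or passed by 56.4%. The median was 18 over the 63 genes called higher in cortex with a listed promoter (2 to 49) and 3 over 5 called lower (2 to 11), against 10 over all 103 channel genes listed and 7 over 27025 genes. These counts describe the letters of the windows, and DNA methylation was not measured here.

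In cortex the m5C RIP could be set against its own input, which asks whether the antibody changed the make-up of the RNA. Of 109 channel genes tested, 1 was called, lower in the m5C RIP; 0.481% of 13518 genes passed. The median log2 fold change was -0.02 for channel genes, against 0.02 for all genes tested. The gene was Kcnh5, at chr12:74897220-75177332 on mm10, with levels of 79.1 CPM in Hom, 63.4 CPM in Het and 61.8 CPM in WT m5C RIP, against 285 CPM in input. All 3 m5C libraries lay below input, with a log2 fold change of -2.02 ± 0.20 (edgeR adjusted p = 1.77e-07), and the call held under all 9 alternatives. Fibroblast libraries gave values in the same order: Kcnh5 was at 0 in Hom (up to 4.37 CPM), 6.26 CPM in Het, and 4.98 and 7.73 CPM in WT m5C RIP, against 147 CPM from 14 counts in input. In the Dnmt1 RIP it was at 18.6 and 54.6 CPM in Hom, 26.7 and 25.03 CPM in Het, and 46.6 and 95.5 CPM in WT. Next by p, without passing, were Scn4b (-0.64 ± 0.20, edgeR adjusted p = 0.256) and Kcnj4 (-0.64 ± 0.23), and on the other side Kcnj10 (0.56 ± 0.19, edgeR adjusted p = 0.375), Kcnk1 (0.64 ± 0.25) and Kcnma1 (0.42 ± 0.18). Without the cortex WT library, 4 channel genes were called.

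**Figure D3:**
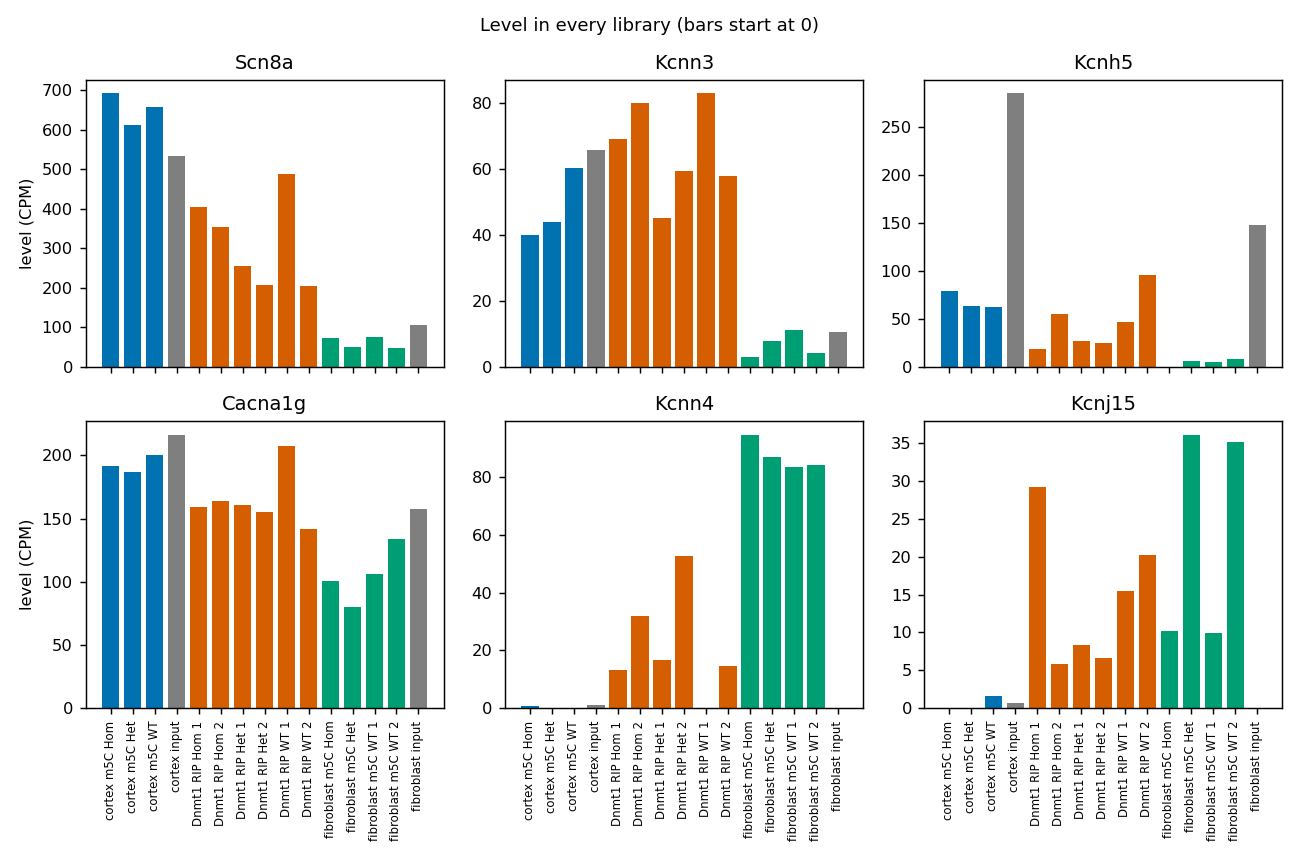
Level (CPM, bars from 0) of Scn8a, Kcnn3, Kcnh5, Cacna1g, Kcnn4 and Kcnj15 in each of the 15 libraries, coloured by antibody and tissue with inputs in grey. Kcnh5 stands highest in the inputs, at 285 CPM in cortex, and Kcnn4 is highest in the 4 fibroblast m5C libraries, at 83.5 to 94.8 CPM.

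The Dnmt1 RIP was compared with the m5C RIP of fibroblasts, with genotype in the model. Besides neuron markers, oligodendrocyte markers were at 38.6 to 66.9% of cortex input in the Dnmt1 RIP and 7.55 to 13.2% in fibroblast m5C RIP. Astrocyte markers were at 34.6 to 56.1% and 10.5 to 13.4%. The part of these markers in the differences was not tested. Fixation, described for the Dnmt1 RIP, cannot be told apart from the antibody. Of 129 channel genes tested, 77 were higher and 3 lower in the Dnmt1 RIP by edgeR's quasi-likelihood test, and 49 were not called. Over 17124 genes 40.2% passed, 17.5% higher and 22.6% lower. The median was 1.42 for channel genes and 0.22 for all genes tested, and groups did not overlap in 60 channel genes, where the background was 31.0%. Of the 129, 122 were positive, against 55.4% of all genes. With library totals in place of TMM factors the all-gene median moved by 0.36, and 89 channel genes were called higher and 1 lower; the channel median minus the all-gene median was 1.20, and 0.835 to 1.80 over the alternatives. Without the overlapping fibroblast m5C libraries 52 were called, 50 higher and 2 lower. In the WT libraries alone 51 were called, and 43 with the replicate number as a block.

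All 4 alpha2delta genes, all 4 Nav beta genes, 7 of 10 Cav alpha1, 7 of 10 Nav alpha, 23 of 40 Kv alpha, 9 of 13 inward rectifiers and 3 of 11 two-pore-domain genes were called higher in the Dnmt1 RIP. Among called genes without overlap between groups and with a mean of 5 CPM or more, Kcnn3 had the largest estimate. It encodes a small-conductance calcium-activated (SK) channel of the kind that shapes the pause after a spike. Outside that rule, estimates reached 3.29 among the inward rectifiers. Kcnn3 had 69.1 and 79.8 CPM in Hom, 45.1 and 59.3 CPM in Het, and 82.8 and 57.9 CPM in WT Dnmt1 RIP, against 2.92 CPM in Hom, 7.70 CPM in Het, and 11.2 and 4.29 CPM in WT m5C RIP (2.64 ± 0.38, edgeR adjusted p = 9.88e-05). Every Dnmt1 RIP value lay above every m5C value. Kcnh5 (2.55 ± 0.55), Cacna2d3 (2.36 ± 0.41), the SK channel Kcnn2 (2.32 ± 0.47), Kcnj11, the pore of ATP-sensitive potassium channels (2.30 ± 0.42), Kcnj16, a partner of Kcnj10 (2.29 ± 0.65), and Cacng4, an AMPA receptor accessory gene (2.27 ± 0.47), followed. Kcnc2 (2.12 ± 0.39), Kcna6 (2.01 ± 0.44) and the silent subunit Kcng1 (2.0 ± 0.41) completed the 10 largest under that rule. Exons of Kcna6 overlap those of Gm26673 over 39.6% of their length, and its counts are uncertain since the sources used here do not state the strand setting of the counting. Scn8a had 404 and 353 CPM in Hom, 254 and 207 CPM in Het, and 487 and 205 CPM in WT Dnmt1 RIP (1.73 ± 0.29 over m5C RIP, edgeR adjusted p = 2.84e-04).

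Kcnn4 was the clearest of the lower 3, at 13.3 and 31.9 CPM in Hom, 16.7 and 52.7 CPM in Het, and 0 (up to 15.5) and 14.5 CPM in WT Dnmt1 RIP, all below the 83.5 to 94.8 CPM of fibroblast m5C RIP. The log2 fold change was -2.64 ± 0.43 (edgeR adjusted p = 2.21e-04), called under all 18 alternatives. Macrophage markers beside it summed to 114 and 1100 CPM in Hom, 192 and 5104 CPM in Het, and 155 and 1403 CPM in WT Dnmt1 RIP, and their part was not tested. Cacng7 (-0.75 ± 0.24, edgeR adjusted p = 0.0199) was called under 11 of 18 alternatives and not with library totals (adjusted p = 0.482), without Dnmt1 RIP WT library 1 (0.0751), without fibroblast m5C WT library 2 (0.0790) or without the fibroblast m5C Hom library (0.0901). Nor was it called without both overlapping libraries (0.143), in the WT libraries alone (0.339) or there with the replicate block (0.373). Kcnj15 (-1.45 ± 0.56, edgeR adjusted p = 0.049) was called under 6 of 18, with adjusted p up to 0.611. Cacna1g had 159 and 164 CPM in Hom, 160 and 155 CPM in Het, and 207 and 142 CPM in WT Dnmt1 RIP, and did not pass (0.05 ± 0.25, edgeR adjusted p = 0.884).

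Set against cortex input gene by gene, the Dnmt1 RIP libraries lay nearer to it than fibroblast m5C RIP did, among genes well read there. Choosing genes by their cortex input counts leaves out genes low in cortex, such as Kcnn4 and Kcnj15. The values therefore describe channel genes present in cortex, not the whole list. Over the 70 channel genes with at least 200 counts in cortex input, the median gene was at 94.4 to 99.9% of input in cortex m5C RIP, 43.2 to 73.0% in the Dnmt1 RIP and 9.17 to 18.8% in fibroblast m5C RIP. Pearson's r of log2 (CPM + 1) with cortex input over these 70 genes, a description across genes that share each library, was 0.92 to 0.94 in cortex m5C RIP, 0.79 to 0.86 in the Dnmt1 RIP and 0.64 to 0.74 in fibroblast m5C RIP. Of these 70 genes, Kcnh5 had the lowest mean over the 6 Dnmt1 RIP libraries, at 15.6% of its cortex input level. Scn4b at 30.3% and Kcnj4 at 35.4% came next. Kcnn2 at 121%, Cacng4 at 112% and Kcnn3 at 99.8% were the highest of the 70. Single libraries spread around these means: Kcnn2 ranged from 34.3 to 136 CPM in the Dnmt1 RIP against 64.5 CPM in cortex input, and Kcnn3 from 45.1 to 82.8 CPM against 65.8 CPM. The summed channel level divided by that of the neuron markers was 2.07 and 2.57 in Hom, 2.03 and 2.02 in Het, and 1.93 and 2.29 in WT Dnmt1 RIP.

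**Figure D4:**
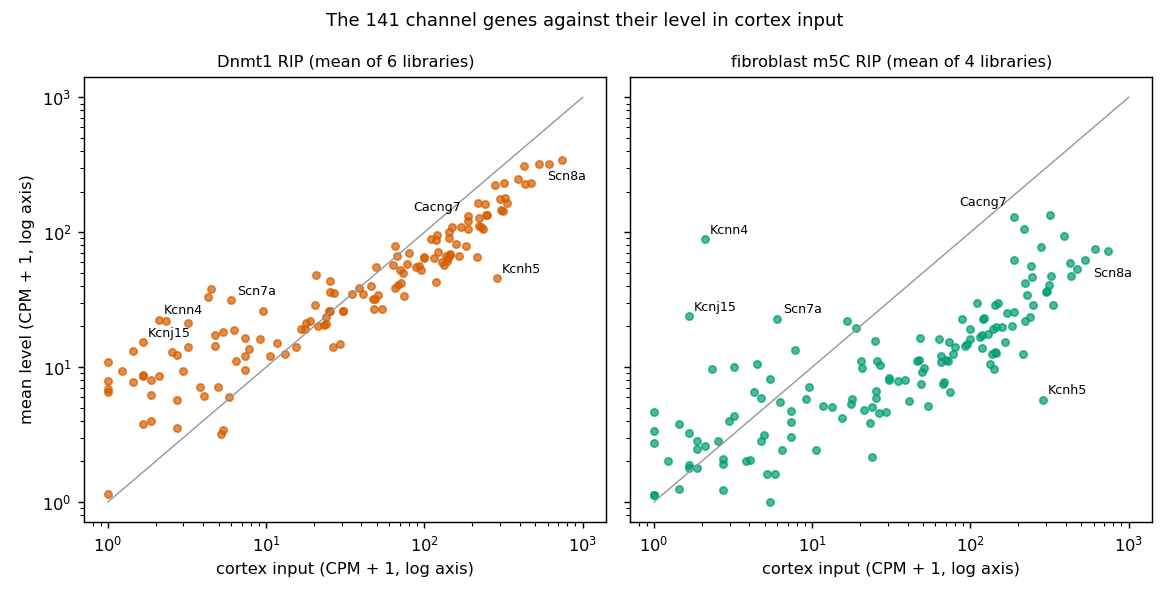
Mean level (CPM + 1, log axes) of the 141 channel genes in the Dnmt1 RIP (left, 6 libraries) and in fibroblast m5C RIP (right, 4 libraries) against their level in cortex input; the line marks equal levels. Most abundant genes lie below the line, by less in the Dnmt1 RIP, with Kcnh5 far below in both and Kcnn4 above in both.

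Between genotypes of the Dnmt1 RIP, no channel gene passed the test, which in simulated data recovered at most 18.5% of 4-fold changes. For Het over WT, edgeR called 0 of 111 channel genes and 0.0% of 13589 genes. At unadjusted p under 0.05 there were 5 channel genes, where the background was 6.39%, and DESeq2 called 26 genes of which 0 were channel genes. The estimates leaned one way: 31 of 111 were positive (27.9%), against 51.6% of all genes tested, and the median was -0.34 against 0.03. The median stayed between -0.44 and -0.19 over the 12 alternatives. Groups did not overlap in 42 channel genes (37.8%), against 35.1% of all genes. Neuron markers summed to 3413 and 3252 CPM in Het and 5254 and 3695 CPM in WT, and fibroblast markers to 22639 and 8417 CPM in Het and 709 and 2289 CPM in WT. Their part in the lower estimates was not tested. Cacna1d, an L-type pore of pacemaking cells, had 63.5 and 52.7 CPM in Het, against 155 and 148 CPM in WT (-1.26 ± 0.41, unadjusted p = 0.011, edgeR adjusted p = 0.732). Kcnj11 had 13.4 and 11.9 CPM in Het, against 36.2 and 54.97 CPM in WT (-1.77 ± 0.62). The A-type channel Kcnd3 had 55.1 and 43.5 CPM in Het, against 104 and 122 CPM in WT (-1.08 ± 0.42). All 3 genes were apart between the groups without passing the adjustment. Kcnk5, a two-pore-domain channel, had 31.7 and 7.91 CPM from 25 counts in Het and 0 counts in both WT libraries. The Het mean was 1.64-fold the mean WT floor of 3 counts, with no counting error taken on the Het side. Het library 2 lay below both WT floors (15.5 and 8.68 CPM), so this ratio rests on Het library 1.

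For Hom over WT, edgeR called 0 of 111 channel genes (0.0% of all genes), with 2 at unadjusted p under 0.05 against a background of 2.27%, and DESeq2 called none of the genes tested. The median was 0.12 for channel genes and 0.01 for all genes, and 70 were positive (63.1%), against 51.0%. Groups did not overlap in 31 (27.9%), against 30.1%. With library totals both medians were below 0, -0.26 and -0.38; relative to all genes the channel median was 0.10, and 0.020 to 0.129 over the alternatives. The A-type channel Kcna4 had 79.7 and 47.9 CPM in Hom, against 20.7 and 23.1 CPM in WT (1.47 ± 0.61, unadjusted p = 0.036, adjusted p = 1 by edgeR). Kcnk5 had 13.3 and 15.1 CPM from 23 counts in Hom and 0 in both WT libraries. The Hom mean was 1.17-fold the mean WT floor, with no counting error taken on the Hom side. Both Hom values lay below the floor of WT library 1 (15.5 CPM) and above that of WT library 2 (8.68 CPM). The channel partner Kcnip1 had an estimate of 1.88 ± 0.95. Kcnj3, a G protein-gated inward rectifier, had 10.6 and 28.6 CPM in Hom, against 72.5 and 34.7 CPM in WT (-1.27 ± 0.70). Gm26794 covers 31.1% of its exons. Kcng1 (-0.87 ± 0.55) and Kcnh5 (-0.92 ± 0.63) were the next on that side.

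For Hom over Het, edgeR called 0 of 111 channel genes (0.0% of all genes), with 4 at unadjusted p under 0.05 against a background of 4.63%, and DESeq2 called 15 genes of which 0 were channel genes. Of the 111, 97 were positive (87.4%), against 49.2% of all genes, with a median of 0.40 against -0.02. With library totals the medians were 0.08 and -0.36, and the difference of the medians was 0.26 to 0.51 over the alternatives. Neuron markers summed to 4756 and 3556 CPM in Hom and 3413 and 3252 CPM in Het, and fibroblast markers to 1326 and 2821 CPM in Hom and 22639 and 8417 CPM in Het. Their part in the higher estimates was not tested. Groups did not overlap in 47 channel genes (42.3%), against 34.5%. Kcnj11 had 47.8 and 39.5 CPM in Hom, against 13.4 and 11.9 CPM in Het (1.65 ± 0.60, unadjusted p = 0.020, edgeR adjusted p = 0.988). The skeletal muscle sodium channel Scn4a had 37.2 and 52.9 CPM in Hom, against 8.35 and 18.4 CPM in Het (1.64 ± 0.61), and the acid-sensitive two-pore channel Kcnk3 had 50.5 and 36.1 CPM in Hom, against 15.04 and 15.8 CPM in Het (1.34 ± 0.59). For Hom over Het all were positive in Cav beta (4 of 4), Cav gamma (6 of 6) and accessory potassium channel genes (7 of 7). HCN genes were also 4 of 4 positive, with a median of 0.97, and 0 of 4 for Het over WT, with a median of -1.03. These comparisons share the Het libraries.

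**Figure D5:**
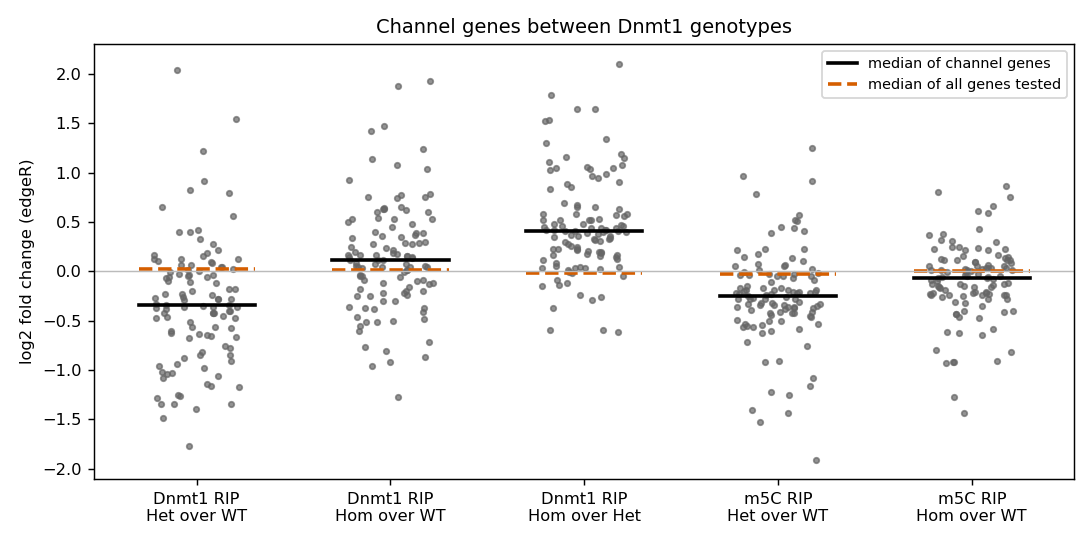
Log2 fold change between Dnmt1 genotypes for the channel genes tested, 1 point per gene, with the median of the channel genes (solid) and of all genes tested (dashed). No point passed the test; Kcnk5, at 0 counts in WT, is not drawn in the Dnmt1 RIP comparisons with WT.

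In the m5C RIP of both tissues together, edgeR called 0 of 109 channel genes for Het over WT (0.0% of 14193 genes), with 6 at unadjusted p under 0.05, all lower, against a background of 3.97%. Over all genes 564 were at that p, of which 178 were higher and the rest lower. DESeq2 called none. Of the 109, 24 were positive (22.02%), against 47.0% of all genes, and the median was -0.25 against -0.03. The median stayed between -0.53 and -0.11 over the 12 alternatives, and in cortex alone it was 0.01 over 85 channel genes. Neuron markers summed to 535 CPM in Het and 1121 and 825 CPM in WT fibroblasts, and to 8393 CPM in Het and 8632 CPM in WT cortex. Their part in the lower estimates was not tested. Groups did not overlap in 3 channel genes, with a background of 5.99%. This count pools both tissues, so a tissue difference makes the groups of most genes overlap, and it cannot describe genotype. Cacng4 had the smallest p (-1.40 ± 0.38, unadjusted p = 0.0025, edgeR adjusted p = 0.989). It had 38.6 CPM in Het and 74.8 CPM in WT cortex, and 2.89 CPM in Het against 9.97 and 15.5 CPM in WT fibroblasts. The estimates of the inward rectifier Kcnj4 (-0.91 ± 0.31) and of the T-type channel Cacna1h (-0.91 ± 0.32) were also below 0. For Hom over WT, 0 of 109 were called (0.0% of all genes) and 1 was at unadjusted p under 0.05, against a background of 0.86%, with none by DESeq2. It was again Cacng4 (-0.93 ± 0.40), at 47.8 CPM in Hom cortex and 4.37 CPM in Hom fibroblasts, set against the same WT libraries. Of the 109, 46 were positive (42.2%), against 49.8% of all genes. Groups did not overlap in 2 channel genes, with a background of 3.68%, again with both tissues pooled and the same limit. The Hom fibroblast library overlaps WT library 1 in its counts, so this comparison is less independent than its library number states. The genotype effect was also compared between antibodies in fibroblasts: of 129 channel genes 0 passed for Het and 0 for Hom (0.0% of 17124 genes in each), with 5 and 1 at unadjusted p under 0.05, where the backgrounds were 3.35% and 1.19%.

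In cortex alone each genotype has 1 library, so the ratios have no replicate check and no test. Among 85 channel genes with at least 50 counts, Het over WT passed 2-fold in 2, where the background was 3.07%, and the median log2 ratio was 0.01 against 0.03. They were Scn9a, a sodium channel of pain-sensing neurons, with 39 counts in Het and 11 in WT (log2 ratio 1.55), and the lymphocyte and brain channel Kcna3, with 23 and 47 counts (-1.13). For Hom over WT 1 of 87 passed, Scn9a with 48 counts in Hom and 11 in WT (1.15), where the background was 2.72%, and the median was 0.00 against 0.05. Scn9a was low in the WT library, at 8.94 CPM, beside 20.9 CPM in Hom, 28.4 CPM in Het and 24.5 CPM in cortex input.

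Genes that anchor, traffic or modulate these channels, a list of 48, gave similar counts. In cortex over fibroblast m5C RIP 38 of 42 tested were called higher and none lower (median 2.91), led by Nrcam, which clusters sodium channels at nodes (3.38 ± 0.20), the HCN trafficking gene Pex5l (3.32 ± 0.20) and the ankyrin Ank2 (3.06 ± 0.19). In Dnmt1 over m5C RIP 35 of 47 were called higher and none lower (median 1.48), among them Nrcam (2.01 ± 0.26) and the A-type channel partner Dpp10 (2.0 ± 0.29). As background, 30.9% of all genes tested were higher in cortex (median -0.06) and 17.5% in the Dnmt1 RIP (median 0.22). None of the 41 to 43 listed genes tested was called in the other comparisons.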

How the data were processed

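Gene counts per symbol were deposited by the authors, 1 table per library, without normalization. Per the submitters' processing notes, the steps used Trim Galore 0.4.1, HISAT2, featureCounts and the mm10 build; the other versions, annotation and strand setting were not given in the sources used here. The tables of 6 libraries hold 5 further entries that name no gene, in the layout of another counter, and these were kept out. An unstated strand setting matters for the 41 channel genes with exons that overlap a gene on the opposite strand; 21 of 44 with any overlap do so over more than 5% of their exonic length.

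Groups came from the labels. The tests were run in edgeR 4.0.16 under R 4.3.3 (filterByExpr with a minimum count of 10 and total of 15, TMM, glmQLFit, glmQLFTest, Benjamini-Hochberg over all genes, threshold 0.05), with genotype as a covariate for tissue and antibody, tissue as a covariate for m5C genotypes, and input against the 3 cortex m5C libraries. Each standard error is the log2 fold change over the square root of F. A fit with lone libraries in a group takes their spread from the other groups. Cortex ratios used a prior count of 2 and at least 50 counts. Exonic lengths came from GENCODE M21 on mm10, matched by symbol for all 141 genes. Promoters came from RefSeq, which listed 103 of them.

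Members, classes and lists were chosen with earlier results of these data known. Named genes were, per tested comparison, up to 10 called genes per direction with the largest change, no overlap between groups and a mean of 5 CPM or more, or else the 3 smallest p; per class, the 3 highest levels per kb in each assay; in cortex ratios, the 3 largest per direction; and up to 3 channel partners per direction. Scn10a, Kcnk6, Cacna1s, Kcne1, Kcnj1 and Kcnq1, outside these rules, were chosen after their values were seen. Some items that the rules name are not reported here. Alternatives were RLE factors, library totals, no filter, DESeq2 1.42.0, leaving out libraries, removal of the 4 dominant transcripts, the replicate block, WT alone and both tissues with inputs; leaving out both overlapping fibroblast m5C libraries was added after the data were seen. The fits were tested on simulated data. Python 3.11.15, pandas 2.3.3, numpy 2.4.6 and matplotlib 3.10.9 made tables and plots.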

Additional observations from a re-analysis of the deposited data

Results flagged for a closer look

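Fibroblast input entered no comparison, yet 32 channel genes had more than 3 counts there, the number that a count of 0 allows. In all 44 of 141 were detected, with 372 counts. Hcn2 had 29, Kcnc1 25, Scn1a 20, Kcnma1 16 and Cacna1g 15 counts. With 58.4% of its gene counts in the 4 dominant transcripts, 3 counts make 31.5 CPM in this library. Neuron markers summed to 2660 CPM, with 3 of 13 at 0, and fibroblast markers to 2208 CPM; their part was not tested.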

How the results depend on the processing

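Between Dnmt1 antibody and m5C antibody libraries of fibroblasts, 80 channel genes were called, 52 without fibroblast m5C WT library 1 and Hom, and 51 in the WT libraries alone; leaving out 1 library gave 61 to 83. With the replicate number as a block in the WT libraries, 43 were called. In the Dnmt1 RIP, deviations from group means correlated over all genes tested at -0.00588 for WT with Het, 0.202 for WT with Hom and 0.0589 for Het with Hom. Such correlations cannot exclude a difference shared by replicate number. Macrophage markers summed to 114, 192 and 155 CPM in library 1 of Hom, Het and WT, and 1100, 5104 and 1403 CPM in library 2. Neuron markers were lower in library 2 of each genotype, and fibroblast markers were higher in library 2 of Hom and WT and lower in Het. The replicate block left 0 channel genes called in all 3 comparisons. For cortex over fibroblast, leaving out 1 library gave 88 to 94 calls of 95 in the full set. For cortex m5C over input it gave 1 to 4, the 4 without WT, and for the genotype comparisons 0 in each. Counted over all genes, leaving out 1 library gave 0 to 38 calls for Het over WT and 0 to 35 for Hom over Het in the Dnmt1 RIP; over all alternatives these were 0 to 192 and 0 to 113. Past 2-fold in cortex, Het over WT gave 0 at a minimum of 200 counts, and Hom over WT 5 at 20 counts and 0 at 200, since the minimum sets which genes are counted. None of the estimates that changed sign passed the test in the setting concerned. Kcnk13, cortex over fibroblast, ranged from -1.23 to 0.021 with 1 library left out and was 0.59 without both overlapping libraries, and 0.010 for Dnmt1 over m5C RIP without both. For Hom over Het, leaving out 1 library gave -1.52 to 0.29 for Kcnn4, -2.72 to 0.056 for Kcna3 and -0.58 to 0.012 for Kcnj10. Cacna1g, Dnmt1 over m5C RIP, became -0.054 with no filter, -0.019 without the 4 dominant transcripts, -0.10 to 0.28 with 1 library left out and -0.018 without both overlapping libraries. For m5C RIP over input, Kcnj10 became -0.49 and Kcnma1 -0.36 with both tissues in 1 fit, and Scn9a for m5C Hom over WT ranged from -0.14 to 0.85 with 1 library left out. The cause was not tested. Depth limits the Dnmt1 RIP WT libraries, where 3 counts make 15.5 and 8.68 CPM.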

Other observations

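Of the channel genes, 30 lay under 1 CPM per kb in cortex input, among them the heart and muscle pores Scn4a and Cacna1s, the sensory neuron channels Scn10a and Scn11a, and Kcne1, Kcnj1 and Kcnq1, known from kidney, heart and inner ear. Their median level was 0.185 to 0.407 CPM per kb in cortex m5C RIP, 1.54 to 3.47 in the Dnmt1 RIP and 0.484 to 0.708 in fibroblast m5C RIP. Choosing the 30 by their cortex input sets low cortex values in advance, so their contrast between cortex and fibroblast libraries is not a test. Olfactory receptor genes, 1134 genes that these tissues are not known to express, averaged 0.0375 to 0.181 CPM per kb in cortex m5C RIP, 1.33 to 2.58 in the Dnmt1 RIP and 0.361 to 0.554 in fibroblast m5C RIP. The other 111 channel genes had medians of 11.9 to 12.3 CPM per kb in cortex m5C RIP, 6.06 to 10.3 in the Dnmt1 RIP and 1.49 to 2.68 in fibroblast m5C RIP. The mean of the 30 was 0.349 to 0.611 CPM per kb in cortex m5C RIP, 2.06 to 3.90 in the Dnmt1 RIP and 1.31 to 1.41 in fibroblast m5C RIP, above the mean of the olfactory receptors in each of these libraries. Kcnn4 is among the 30 and, at 17.1 CPM per kb in fibroblast m5C RIP, raises the mean there. In the Dnmt1 RIP, 70 to 103 of the 141 channel genes were above the 95th percentile of the olfactory receptors, against 73 in each fibroblast m5C library and 114 to 125 in cortex m5C RIP.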
